A study of Mus musculus with 25 samples.

Results

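The salt-inducible kinases *Sik1*, *Sik2* and *Sik3*, the CREB-regulated transcription coactivators *Crtc1*, *Crtc2* and *Crtc3*, the transcription factors *Creb1* and *Crem* and the phosphodiesterases *Pde4b* and *Pde4d* were followed in RNA sequencing of mouse *soleus*. They are 10 of the 52636 genes in the count table and were taken by gene symbol. The members were chosen by their role in one signalling circuit and with their exercise log2 fold changes in the same libraries already known, so that their exercise values are given below as a description without p-values, and how many passed a threshold is given only beside the share of all genes that did. P-values are given for genotype, for the genotype by exercise interaction and for sex, which are treated here as contrasts not used in the choice, although earlier results for them were also known.

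The study deleted the DNA methyltransferase gene *Dnmt3a* in muscle and compared muscle transcripts at rest and after an acute bout of running. All 25 C57BL/6 mice were 12 weeks old and carried floxed *Dnmt3a* alleles, so the WT mice were *Dnmt3a* flox/flox animals without Cre. The mD3AKO mice carried in addition Cre recombinase under the muscle creatine kinase promoter, which acts late in muscle differentiation, so that satellite cells and non-muscle cells are presumed to keep *Dnmt3a*. The 4 groups were 5 WT and 7 mD3AKO mice at rest, which had spent 30 minutes in a sham treadmill arena, and 7 WT and 6 mD3AKO mice killed 60 minutes after running for 30 minutes at 16 m/min on a 5% incline. There were 13 males and 12 females, with both sexes in every group.

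As background, hormones and neurotransmitters that raise cyclic AMP activate protein kinase A (PKA), which phosphorylates CREB and also phosphorylates and restrains the salt-inducible kinases. Active salt-inducible kinases, which are themselves switched on by the kinase LKB1, phosphorylate the CRTC coactivators and class IIa histone deacetylases and hold them in the cytoplasm. When the kinases are restrained, CRTC proteins enter the nucleus and bind CREB on cyclic AMP response elements. PDE4 enzymes break down cyclic AMP and so end the signal. In skeletal muscle this circuit is known for its part in the response to adrenergic drive and contraction, where *Sik1* and short inducible *Crem* transcripts are themselves CREB targets and act as feedback inhibitors.

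The promoters of 7 of the 10 members were found in the RefSeq table for GRCm38.p6, with 10 windows of 300 bases that run from 250 bases before to 50 after an annotated start. *Sik1*, *Crtc2* and *Crem* are not among these 7 members, and 4 of the 10 windows belong to *Pde4b*. The 4 shown are those of *Sik3*, *Sik2*, *Pde4b* and *Pde4d*. Those of *Sik3* and *Sik2* hold more than 1 copy of the CREB half-site, and that of *Pde4b* is the window of that gene with a copy. *Pde4d* is a member with a clear exercise response and had no copy in its only window. Capitals mark TGACG, or CGTCA, which is the same half-site read on the other strand. The *Sik3* window is chr9:46012570-46012869 on the plus strand, that of *Sik2* is chr9:51009024-51009323 on the minus strand, that of *Pde4b* is chr4:102421305-102421604 on the plus strand, and that of *Pde4d* is chr13:108653927-108654226 on the plus strand.
Sik3: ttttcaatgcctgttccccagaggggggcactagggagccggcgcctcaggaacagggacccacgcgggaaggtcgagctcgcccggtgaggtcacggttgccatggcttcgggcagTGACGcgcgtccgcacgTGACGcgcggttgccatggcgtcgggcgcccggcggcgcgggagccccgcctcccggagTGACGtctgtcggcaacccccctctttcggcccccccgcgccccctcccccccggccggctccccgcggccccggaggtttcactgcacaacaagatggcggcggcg
Sik2: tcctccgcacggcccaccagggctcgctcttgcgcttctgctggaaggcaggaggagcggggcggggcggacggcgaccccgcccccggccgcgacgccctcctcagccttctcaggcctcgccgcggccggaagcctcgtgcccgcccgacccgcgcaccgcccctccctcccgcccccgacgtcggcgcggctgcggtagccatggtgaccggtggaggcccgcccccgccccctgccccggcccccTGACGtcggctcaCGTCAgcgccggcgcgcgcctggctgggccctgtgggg
Pde4b: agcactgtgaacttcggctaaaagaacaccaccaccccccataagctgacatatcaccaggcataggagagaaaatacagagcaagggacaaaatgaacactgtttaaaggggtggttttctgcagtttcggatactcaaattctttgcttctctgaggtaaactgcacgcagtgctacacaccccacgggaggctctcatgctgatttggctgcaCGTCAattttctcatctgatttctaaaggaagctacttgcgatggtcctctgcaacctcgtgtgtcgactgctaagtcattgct
Pde4d: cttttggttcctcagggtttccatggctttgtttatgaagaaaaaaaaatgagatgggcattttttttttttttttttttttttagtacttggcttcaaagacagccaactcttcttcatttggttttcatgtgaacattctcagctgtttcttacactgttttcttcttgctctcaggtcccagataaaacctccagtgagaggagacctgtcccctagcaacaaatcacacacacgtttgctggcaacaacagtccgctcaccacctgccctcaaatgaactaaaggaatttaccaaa

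The *Sik3* window held 3 copies, whose first bases lie 133, 116 and 57 bases before the start. The *Sik2* window held 1 copy of each orientation around the start itself, and the *Pde4b* window held 1 copy with its first base 34 bases before the start. In all, 3 of these 10 windows (30.0%), from 3 of the 7 members, held a half-site, beside 6837 of all 32851 windows in the table (20.8%). The full palindrome TGACGTCA, which contains both half-sites, was in 0 of these 10 windows, which cover neither *Sik1* nor *Crem*, and in 588 of all windows (1.79%). These matches describe letters in a short window and carry no information on binding. The *Pde4b* and *Pde4d* windows lie inside their gene models. No window covers the first bases of those models, at chr4:102087543 and chr13:108449948.

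The libraries held 22671457 to 37431801 counts per mouse with a median of 32189360, so that a level of 1 CPM (counts scaled to a common library total) stood for about 32.2 reads at the median. Members are given as CPM on library sizes scaled by TMM (trimmed mean of M-values), a scaling that assumes most genes do not change. *Dnmt3a* lay at 93.3 to 130.4 CPM in the 12 WT mice and at 34.5 to 53.8 CPM in the 13 mD3AKO mice, in accordance with every genotype label. Mouse 15, a male mD3AKO mouse at rest, had the fewest counts and 39.5% of them in 3 ribosomal RNA genes, where the other 24 libraries had 7.75% to 13.0%. Without it, the exercise log2 fold change was 2.14 for *Sik1*, 0.62 for *Pde4d*, 0.42 for *Crem* and 0.23 for *Pde4b*. The muscle fiber genes *Acta1*, *Ckm*, *Myh7*, *Myh2*, *Tnnt1* and *Tnni1* summed to 56684 to 76612 CPM in every library. Because whole muscle was sequenced, fewer cells of a type and less RNA per cell cannot be told apart in any value below.

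Of the 10 members, *Sik1* rose most after exercise in both genotypes, and *Pde4d* and *Crem* rose by smaller amounts. The exercise log2 fold change of *Pde4b* was 0.21, and those of the other 2 kinases, the 3 coactivators and *Creb1* lay between -0.024 and 0.18. With edgeR's quasi-likelihood test, 3 of the 10 passed an adjusted p of 0.05 for exercise, all higher, in a comparison where 10.4% of the 16340 tested genes passed and 5.7% passed with a higher level. Within genotypes, 3 members passed in WT mice, where 3.59% of all genes did, and 4 in mD3AKO mice, where 6.02% did. As the members were chosen with this contrast known, the counts are given only as a description. The median exercise log2 fold change was 0.14 over the 10 members and -0.00090 over all tested genes.

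**Figure D1:**
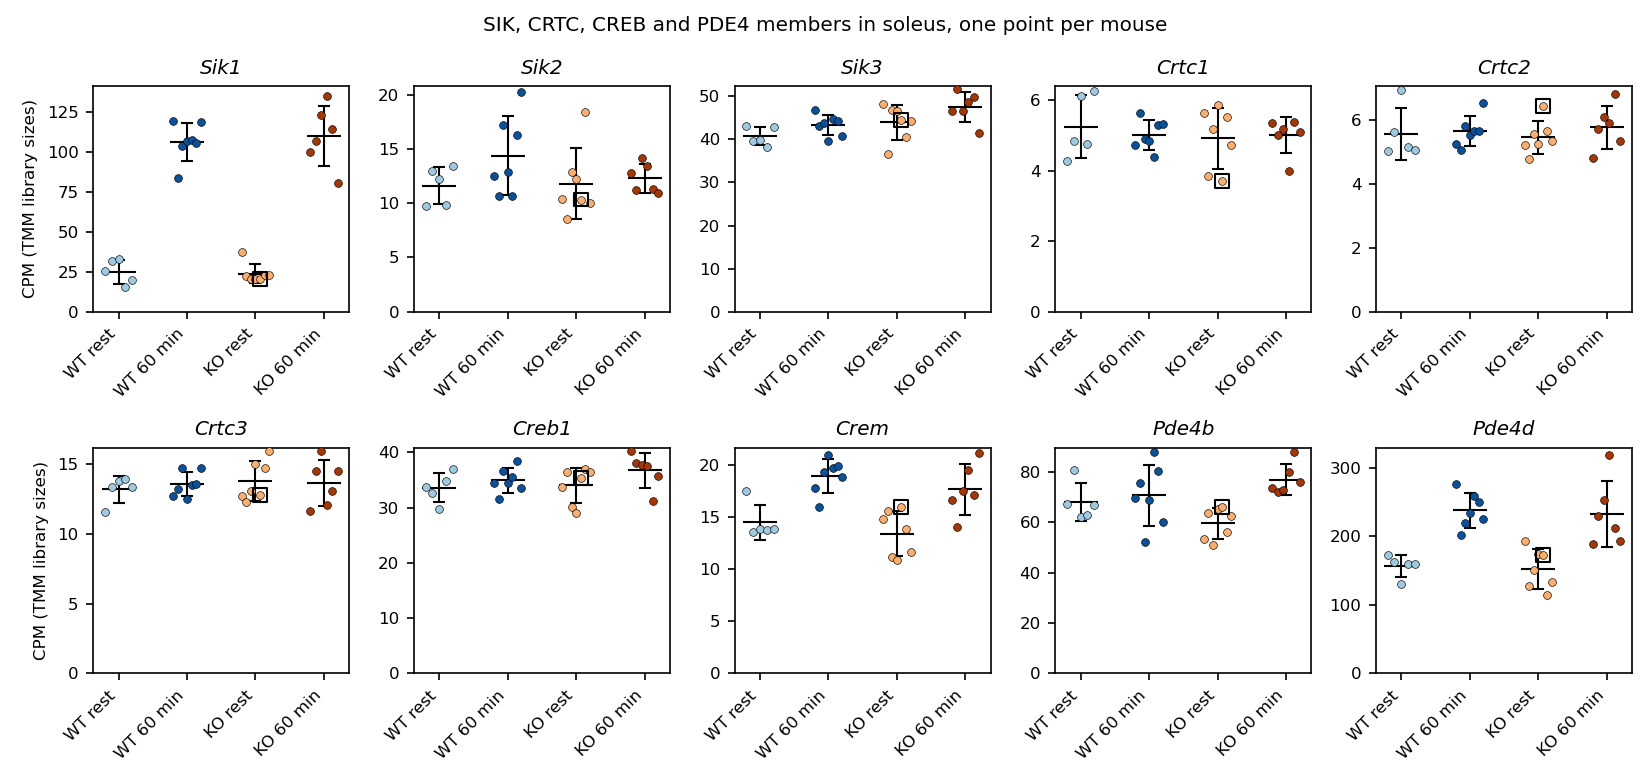
Level of each of the 10 members in CPM (vertical axes, each starting at 0) in the 4 groups, with 1 point per mouse, a bar at the group mean, whiskers of 1 SD and a square around mouse 15. The exercised mice lie at 80.7 to 135 CPM for *Sik1*, above all rested mice at 15.4 to 37.0 CPM, while the *Crtc1*, *Crtc2* and *Crtc3* points of the 4 groups overlap.

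*Sik1* encodes the inducible member of the kinase family, and its gene lies at chr17:31844248-31855792 on the minus strand (mm10). The 5 rested WT mice had 25.4, 31.4, 32.7, 15.4 and 19.8 CPM. The 7 rested mD3AKO mice ran from 20.2 to 37.0 CPM with a median of 22.4, and 6 of these 7 mice lay between 20.2 and 22.8 CPM. The 7 exercised WT mice ran from 83.6 to 119 CPM with a median of 107, and the 6 exercised mD3AKO mice from 80.7 to 135 CPM with a median of 111. Every exercised mouse was thus above every rested mouse, a separation upwards that 0.765% of the tested genes showed. The group means were 24.9 ± 7.41 CPM (SD, n = 5) and 23.7 ± 5.99 CPM (n = 7) at rest and 106 ± 11.8 CPM (n = 7) and 110.0 ± 18.9 CPM (n = 6) after exercise, in WT and mD3AKO mice respectively. Its exercise log2 fold change was 2.15 (SE 0.120), a 4.44-fold higher level, which ranked 34 from the top among the 16340 genes. It was 2.09 (SE 0.176) in WT and 2.21 (SE 0.160) in mD3AKO mice.

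*Sik2* (chr9:50892801-51009073, minus strand) and *Sik3* (chr9:46012820-46224194, plus strand) encode the broadly expressed kinases of the family, and neither moved as *Sik1* did. For *Sik2*, the rested WT mice had 9.72, 12.9, 12.2, 9.84 and 13.4 CPM, and the rested mD3AKO mice 8.52 to 18.4 CPM with a median of 10.4. After exercise *Sik2* ran from 10.6 to 20.2 CPM with a median of 12.8 in WT mice and from 10.9 to 14.1 CPM with a median of 12.0 in mD3AKO mice. All 4 groups overlapped, and 1 of the 13 exercised mice was above the highest rested mouse. *Sik2* had an exercise log2 fold change of 0.18 (SE 0.115), with 0.31 (SE 0.167) in WT and 0.057 (SE 0.158) in mD3AKO mice. The mD3AKO value was 0.20 without mouse 21, the rested mouse at 18.4 CPM, and -0.012 without mouse 7. The *Sik2* gene model shares 1429 of its 9539 exon bases with *Ppp2r1b* on the opposite strand. Since it is not stated whether counting used the strand, it is not known how reads from those bases were counted.

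*Sik3* had 43.1, 39.7, 40.0, 38.3 and 42.9 CPM in the rested WT mice, and 36.6 to 48.3 CPM with a median of 44.6 in the rested mD3AKO mice. After exercise it ran from 39.7 to 46.8 CPM with a median of 43.7 in WT mice and from 41.5 to 51.6 CPM with a median of 47.6 in mD3AKO mice. The groups overlapped, and the spread within a group was narrow, with SDs of 2.10 to 4.07 CPM. *Sik3* had an exercise log2 fold change of 0.099 (SE 0.0446).

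Because only *Sik1* moved much, the make-up of the family changed with exercise. Levels per kilobase of exon set genes of unlike length side by side but depend on the exon length of each gene model. On that scale the 3 kinases summed at rest to 11.1 ± 1.74 CPM per kilobase (SD, n = 5) in WT and 11.2 ± 1.52 (n = 7) in mD3AKO mice. After exercise they summed to 29.7 ± 2.84 (n = 7) and 30.8 ± 4.51 (n = 6). *Sik1* made up 48.8% ± 7.52 of that sum in rested WT and 46.5% ± 5.52 in rested mD3AKO mice, and 79.2% ± 1.69 and 79.0% ± 2.12 after exercise. The share of *Sik3* went from 40.1% ± 6.40 to 15.8% ± 1.76 in WT and from 42.4% ± 4.29 to 16.8% ± 1.88 in mD3AKO mice, although its own level differed little. The *Sik1* share ran from 76.2% to 81.9% over the 13 exercised mice and from 39.9% to 56.7% over the 12 rested mice. A share has an upper limit, so its narrower range after exercise is no direct measure of how steady the *Sik1* level was. After exercise that level was 23.6 ± 2.62 CPM per kilobase in WT and 24.4 ± 4.18 in mD3AKO mice. At rest it was 5.53 ± 1.64 and 5.26 ± 1.33. The SD of the level was thus larger after exercise, but smaller in relation to the mean.

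**Figure D2:**
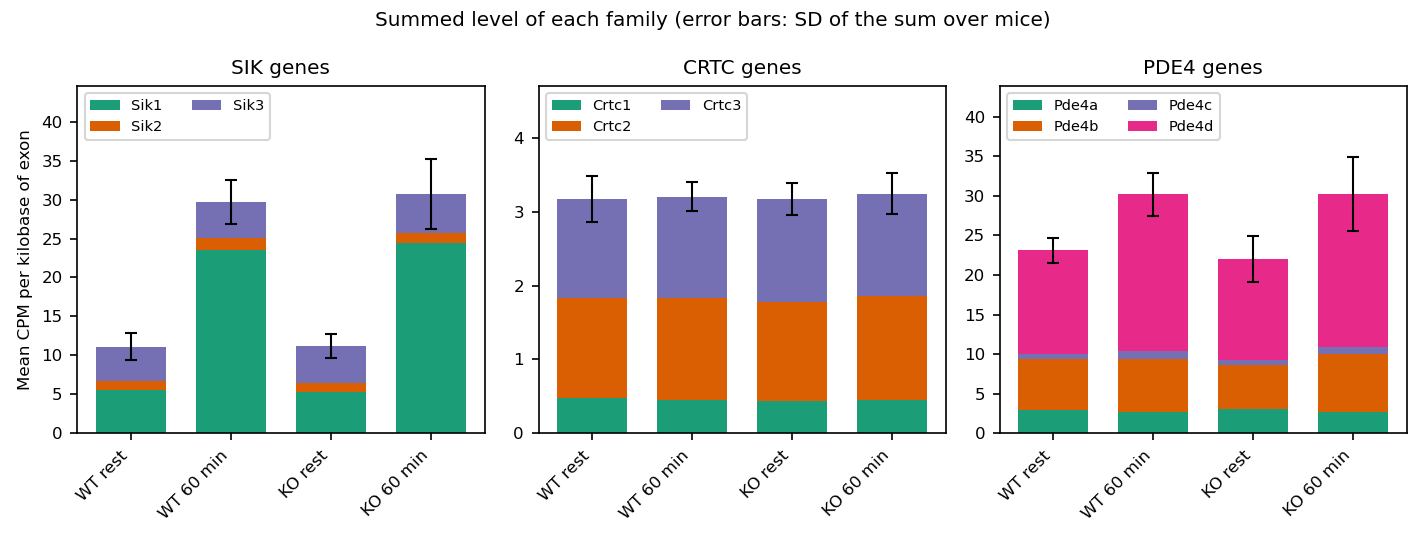
Mean level in CPM per kilobase of exon (vertical axes, starting at 0) of the genes of the SIK, CRTC and PDE4 families, stacked by gene in the 4 groups, with error bars of 1 SD of the sum over mice. The SIK sum is 11.1 and 11.2 at rest and 29.7 and 30.8 after exercise, while the CRTC sum lies between 3.17 and 3.24 in all 4 groups.

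The CRTC coactivators, which carry the CREB signal into the nucleus under control of their phosphorylation, differed little between groups at the level of RNA. *Crtc1* (chr8:70382355-70439579, minus strand) had 4.26, 4.84, 6.13, 4.75 and 6.28 CPM in the rested WT mice and 3.70 to 6.28 CPM over all 12 rested mice, beside 3.99 to 5.65 CPM over the 13 exercised mice. *Crtc2* (chr3:90254163-90264125, plus strand) ran from 4.77 to 6.96 CPM at rest and from 4.82 to 6.82 CPM after exercise. *Crtc3* (chr7:80586627-80688877, minus strand) ran from 11.6 to 16.0 CPM in both states. No exercised mouse lay above the highest rested mouse for any of these genes. The exercise log2 fold changes were -0.024 (SE 0.0819) for *Crtc1*, 0.054 (SE 0.0657) for *Crtc2* and 0.0098 (SE 0.0554) for *Crtc3*. That of *Crtc2* was 0.023 without mouse 19 and 0.10 without mouse 13. At 2 standard errors these estimates leave room for changes of -0.19 to 0.14, -0.078 to 0.19 and -0.10 to 0.12 on the log2 scale, respectively.

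Per kilobase, the 3 coactivators summed to 3.17 ± 0.308 CPM per kilobase in rested WT, 3.18 ± 0.216 in rested mD3AKO, 3.21 ± 0.198 in exercised WT and 3.24 ± 0.275 in exercised mD3AKO mice. *Crtc2* made up 42.1% to 43.5% of the sum in the group means, *Crtc3* 42.4% to 44.1% and *Crtc1* 13.8% to 14.8%. Per kilobase, the RNA of *Crtc1*, the coactivator best known from brain, was the smallest part of the family in *soleus* in every group. Its distance from *Crtc2* on this scale goes with exon lengths of 11182 bases for *Crtc1* and 4094 for *Crtc2*. In CPM over the 25 mice the levels were close, at 5.04 ± 0.661 for *Crtc1* and 5.61 ± 0.584 for *Crtc2*.

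*Creb1* (chr1:64532645-64604548, plus strand), the founding cyclic AMP response factor, lay between 29.0 and 37.0 CPM in the 12 rested mice and between 31.1 and 40.3 CPM in the 13 exercised mice. The means were 33.6 ± 2.65 CPM (SD, n = 5) in rested WT, 34.0 ± 3.24 (n = 7) in rested mD3AKO, 34.9 ± 2.21 (n = 7) in exercised WT and 36.7 ± 3.12 (n = 6) in exercised mD3AKO mice. These means lie within about 1 SD of each other, and the exercise log2 fold change was 0.084 (SE 0.0492).

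*Crem* (chr18:3266048-3337748, minus strand) encodes both activators and, from an inner promoter, the short inducible repressors of CREB targets, which counts per gene do not separate. The rested WT mice had 17.5, 13.6, 13.9, 13.8 and 13.9 CPM, and the rested mD3AKO mice 10.9 to 16.0 CPM with a median of 13.9. The exercised WT mice ran from 16.0 to 21.0 CPM with a median of 19.3, and the exercised mD3AKO mice from 14.1 to 21.2 CPM with a median of 17.3. All 13 exercised mice were above the rested median and 8 of 13 above every rested mouse, so the states overlapped. Its exercise log2 fold change was 0.39 (SE 0.0731), or 1.31-fold, and it was 0.38 (SE 0.106) in WT and 0.40 (SE 0.100) in mD3AKO mice. The *Crem* model shares 103 of its 5895 exon bases with *Gm6225* on the opposite strand, a gene with 226 counts over all libraries beside 13142 for *Crem*.

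*Pde4d* (chr13:108449948-109953461, plus strand) had the highest level per kilobase of the members at rest and encodes the PDE4 enzyme that is tied to beta-adrenergic signalling in striated muscle. The rested WT mice had 173, 163, 130.5, 159 and 160.4 CPM, and the rested mD3AKO mice 114 to 193 CPM with a median of 150.4. After exercise it ran from 202 to 276 CPM with a median of 234 in WT mice, all above the rested WT mice as for 2.06% of the tested genes, and from 189 to 320 CPM with a median of 221 in mD3AKO mice. Of the 13 exercised mice, 11 were above the highest of the 12 rested mice. The means rose from 157 ± 15.9 CPM (SD, n = 5) to 238 ± 25.4 CPM (n = 7) in WT and from 152 ± 28.9 CPM (n = 7) to 233 ± 48.9 CPM (n = 6) in mD3AKO mice. The exercise log2 fold change was 0.61 (SE 0.0885), or 1.52-fold, with 0.60 (SE 0.129) in WT and 0.61 (SE 0.121) in mD3AKO mice.

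*Pde4b* (chr4:102087543-102607259, plus strand), the PDE4 gene best known from leukocytes and also expressed in muscle, was the member with the largest estimated difference in exercise response between genotypes, also in 24 of the 25 fits that left out 1 mouse. Without mouse 11 that of *Sik2* was larger, at -0.29 beside 0.24 for *Pde4b*. The rested WT mice had 67.3, 80.7, 61.9, 62.9 and 67.0 CPM, and the exercised WT mice ran from 52.3 to 87.9 CPM with a median of 69.6, around the same centre. The rested mD3AKO mice ran from 50.8 to 66.3 CPM with a median of 62.4, and the exercised mD3AKO mice from 72.1 to 87.8 CPM with a median of 74.7, so that these 2 groups did not overlap, as in 1.55% of the tested genes upwards. The exercise log2 fold change was 0.056 (SE 0.100) in WT and 0.37 (SE 0.0953) in mD3AKO mice, and 0.21 (SE 0.0694) over both. With 1 mouse left out the WT value ran from -0.0067 (without mouse 18) to 0.13 (without mouse 11, a rested WT mouse at 80.7 CPM). In WT mice at rest *Pde4b* stood higher, at 68.0 ± 7.52 CPM (n = 5), than in mD3AKO mice, at 59.7 ± 6.15 CPM (n = 7), and after exercise lower, at 70.7 ± 12.0 CPM (n = 7) beside 77.0 ± 6.04 CPM (n = 6). Without mouse 11 the rested WT mice had 64.8 ± 2.74 CPM (n = 4), which brings the difference at rest from 8.27 to 5.08 CPM.

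Of the PDE4 family, which also holds *Pde4a* and *Pde4c*, *Pde4d* made up 56.5% ± 3.30 of the summed level per kilobase in rested WT and 57.3% ± 4.98 in rested mD3AKO mice, and 65.7% ± 2.74 and 63.7% ± 3.25 after exercise. The family sum was 23.1 ± 1.56 and 22.0 ± 2.89 CPM per kilobase at rest and 30.2 ± 2.78 and 30.3 ± 4.71 after exercise, in WT and mD3AKO mice respectively. *Pde4b* contributed 26.0% to 27.8% of the sum at rest and 22.1% to 24.5% after exercise in the group means.

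**Figure D3:**
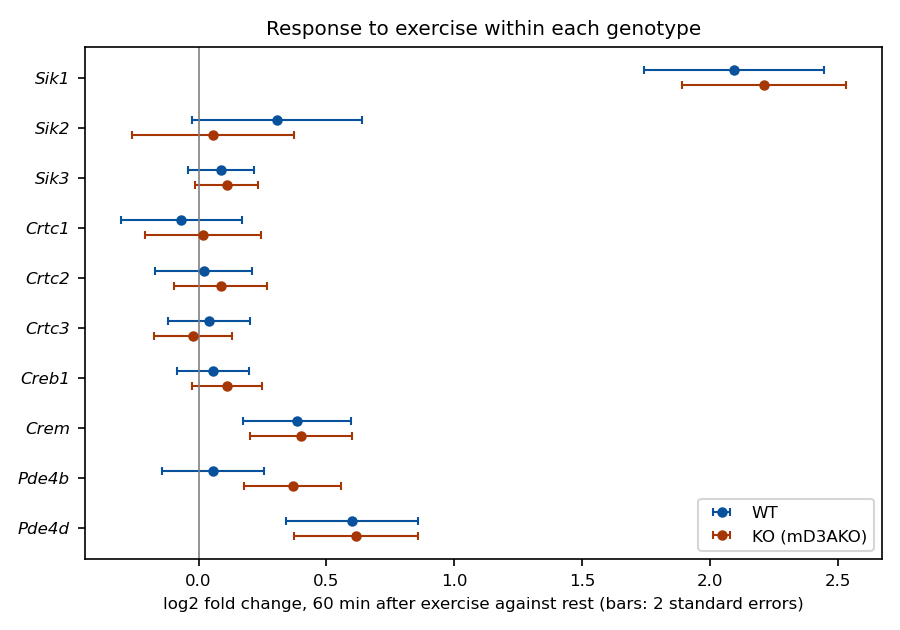
Exercise log2 fold change (horizontal axis, 60 minutes after exercise against rest) of the 10 members in WT and in mD3AKO mice, as points with bars of 2 standard errors. *Sik1* stands at 2.09 and 2.21, *Pde4d* at 0.60 and 0.61 and *Crem* at 0.38 and 0.40, while *Pde4b* has 0.056 in WT and 0.37 in mD3AKO mice.

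The deletion of *Dnmt3a* moved no member past the threshold. With edgeR's quasi-likelihood test of the mean over both states, 0 of the 10 members passed an adjusted p of 0.05, as did 0.269% of all genes. DESeq2 also called 0 members, and at an unadjusted p under 0.05 there was 1, *Sik3*, beside 6.22% of all genes. *Sik3* was 0.12 higher on the log2 scale in mD3AKO mice (SE 0.0446, unadjusted p = 0.0134, adjusted p = 0.570 by edgeR), with 0.11 (SE 0.0647) at rest and 0.13 (SE 0.0613) after exercise. The largest remaining estimates were -0.11 (SE 0.0728) for *Crem*, which ran from -0.14 to -0.071 with 1 mouse left out, and -0.098 (SE 0.115) for *Sik2*, which ran from -0.17 to -0.047, and the adjusted p of the 9 members other than *Sik3* lay between 0.940 and 1.00 by edgeR. For *Sik1* the genotype difference was -0.011 (SE 0.113), and 2 standard errors around it span -0.24 to 0.22. *Dnmt3a* itself differed by -1.52 (SE 0.0701, adjusted p = 1.5e-13) in the same fit.

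Whether the response to exercise differed between genotypes was asked with the interaction term. By edgeR's quasi-likelihood test, 0 of the 10 members and 0 of the 16340 genes passed (0% called), with 1 member and 403 genes at an unadjusted p under 0.05 (2.47% of all genes), and DESeq2 likewise called 0. The member was *Pde4b*, whose response was 0.31 larger on the log2 scale in mD3AKO mice (SE 0.138, unadjusted p = 0.0332, adjusted p = 1.00 by edgeR). The difference in *Pde4b* described above therefore did not hold after adjustment over all genes. The interaction estimates were 0.12 (SE 0.227) for *Sik1*, 0.015 (SE 0.176) for *Pde4d*, 0.015 (SE 0.146) for *Crem* and -0.25 (SE 0.230) for *Sik2*. With 1 mouse left out that of *Sik2* ran from -0.32 to -0.11. For *Sik1*, 2 standard errors around the estimate span -0.34 to 0.57.

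Sex was tested in a fit with 8 groups of sex, genotype and state over 17389 genes. The 13 males were mice 7 to 19 and the 12 females mice 1 to 6 and 20 to 25, so that sex and the run of mouse numbers cannot be told apart in any sex value. By edgeR's quasi-likelihood test, 0 of the 10 members passed for sex, beside 8.15% of all genes, and the 1 member at an unadjusted p under 0.05, as were 22.4% of all genes, was *Crtc2*, 0.14 higher on the log2 scale in males (SE 0.0649, adjusted p = 0.211). Without TMM that difference was 0.015, and the values of all 10 members were lower by 0.11 to 0.13 together, as the median over all genes moved from -0.0054 to -0.12. The response to exercise differed between the sexes in 0 of the 10 members and in 0.046% of all genes, and 0 members had an unadjusted p under 0.05, beside 3.28% of all genes. *Sik1* had an exercise log2 fold change of 2.28 (SE 0.150) in males and 2.02 (SE 0.167) in females, a difference of 0.26 (SE 0.212, adjusted p = 1.00 by edgeR) that ran from 0.12 to 0.35 with 1 mouse left out. *Crem* had 0.49 (SE 0.104) in males and 0.29 (SE 0.111) in females, and *Pde4d* 0.70 (SE 0.121) and 0.50 (SE 0.130), both with an adjusted p of 1.00 by edgeR for the difference.

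Ordered by level per kilobase of exon at rest, *Pde4d* came first with 12.9 ± 1.96 CPM per kilobase (SD over 12 mice), above *Pde4b* in every mouse. *Pde4b* with 5.98 ± 0.729, *Sik1* with 5.37 ± 1.40 and *Sik3* with 4.57 ± 0.391 followed with overlapping ranges, and *Pde4b* was above *Sik1* in 10 of 12 mice and *Sik1* above *Sik3* in 7 of 12. Then came *Creb1* with 2.46 ± 0.210 and *Crem* with 2.36 ± 0.336, which do not differ beyond their spread, and *Crtc3* with 1.38 ± 0.125, *Crtc2* with 1.35 ± 0.152 and *Sik2* with 1.23 ± 0.274, whose ranges also overlapped. *Crtc1* was lowest with 0.453 ± 0.0763. Over the 13 exercised mice *Sik1* headed the order with 23.9 ± 3.30 CPM per kilobase, above *Pde4d* with 19.6 ± 3.03 in 13 of 13 mice although the ranges overlapped. *Crem*, with 3.12 ± 0.352, was then above *Creb1*, with 2.60 ± 0.198, in 11 of 13 mice. At rest *Creb1* had been above *Crem* in 7 of 12. This order depends on exon lengths of 5895 bases for *Crem* and 13742 for *Creb1*. In CPM over the 13 exercised mice *Creb1* was higher, at 35.8 ± 2.72 beside 18.4 ± 2.07 for *Crem*.

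The genes most like *Sik1* over the 25 libraries, by Pearson's r of log2 CPM, were *Nr4a3* (r = 0.975, rho = 0.918), *Maff* (r = 0.964, rho = 0.940), *Irs2* (r = 0.963, rho = 0.890), *Nfil3* (r = 0.963, rho = 0.911) and *Slc25a25* (r = 0.963, rho = 0.830). *Nr4a3* encodes an orphan nuclear receptor, *Maff* and *Nfil3* basic leucine zipper factors, *Irs2* an adaptor of insulin signalling and *Slc25a25* a mitochondrial ATP-magnesium carrier. These values mostly reflect the step between rested and exercised mice. With the 4 group means removed, r was 0.80 for *Nr4a3*, 0.68 for *Maff*, 0.67 for *Nfil3*, 0.49 for *Irs2* and 0.30 for *Slc25a25*. Genes near *Pde4d* by the same measure were *Lpin1* (r = 0.901), *Ercc5* (r = 0.898), *Mafk* (r = 0.891) and *Sgms1* (r = 0.887), with 0.66, 0.64, 0.60 and 0.58 after removal of the group means. The genes were picked for these values, which are therefore a description.

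Whether genes also varied together among mice of the same state was described for 10 relations, without a test: 5 pairs in each state, 3 between members and 2 between *Sik1* and a CREB target gene. *Sik1* and *Pde4d* had r = 0.768 and rho = 0.780 over the 13 exercised mice, and r = 0.729 without the 2 mice farthest from the *Sik1* median. Over the 12 rested mice the same pair had r = 0.105 and rho = 0.0979, and r = -0.179 without the 2 farthest, so that its sign at rest rests on those 2 mice. Over all 25 mice with group means removed it had r = 0.34 and rho = 0.35. The difference between the states was not tested. *Sik1* and *Nr4a3* had r = 0.856 and rho = 0.874 at rest and r = 0.613 and rho = 0.511 after exercise, with 0.930 and 0.507 without the 2 farthest mice. *Sik1* and *Ppargc1a*, a transcriptional coactivator of mitochondrial genes, had r = 0.664 and rho = 0.599 after exercise and r = -0.095 and rho = 0.063 at rest, with 0.578 and -0.274 without the 2 farthest mice. *Sik1* and *Crem*, which both rose, had r = 0.0061 after exercise and r = 0.230 at rest, with 0.112 and 0.218 without the 2 farthest mice, and *Crem* and *Pde4d* had 0.206 and 0.134, with 0.122 and 0.205. Among all 45 pairs of members over the 25 mice with group means removed, the highest r was 0.58 (*Sik3* and *Pde4d*, rho = 0.615) and the lowest -0.53 (*Crtc1* and *Crem*, rho = -0.41). Mice share library depth and dissection with these values.

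**Figure D4:**
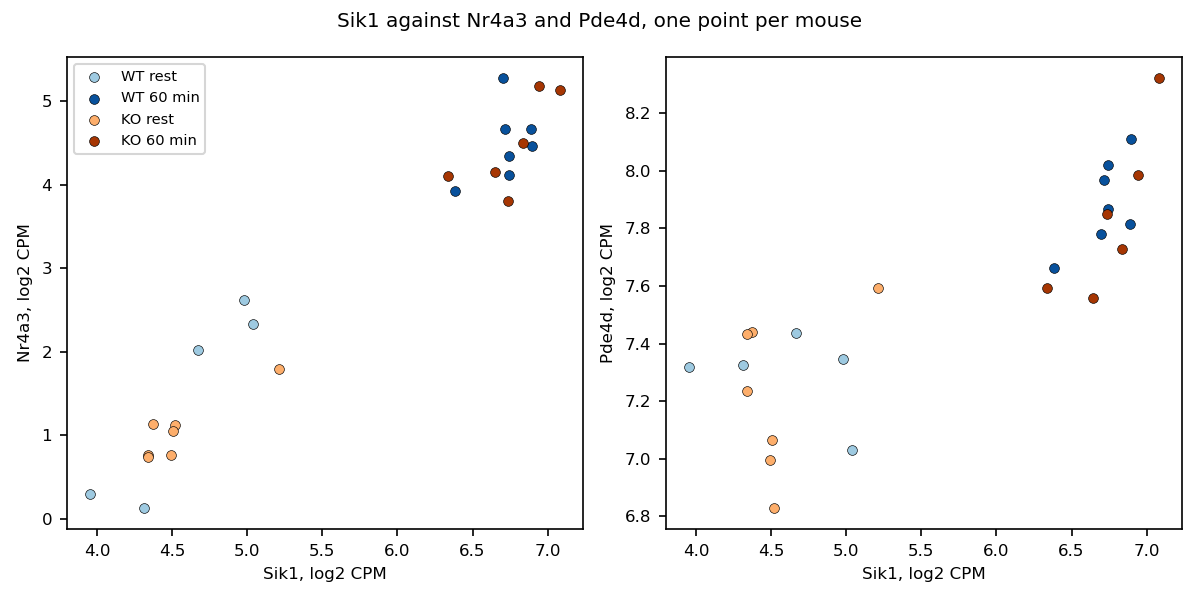
Log2 CPM of *Sik1* (horizontal axes) against *Nr4a3* (left) and *Pde4d* (right), with 1 point per mouse and a color per group. Rested and exercised mice form separate clouds, and r of *Sik1* and *Pde4d* is 0.768 over the 13 exercised and 0.105 over the 12 rested mice, a difference that was not tested.

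Around the members, 7 lists of genes of the same circuit were described, beside the 10.4% of all genes called for exercise (5.7% higher and 4.69% lower). Of 19 tested receptors, G proteins and adenylyl cyclases, 4 rose and 3 fell. Among them *Adcy3*, which fell, was not called without TMM, without a filter or in 12 of the 25 fits that left out 1 mouse. *Gnai3*, which rose, was not called without TMM. *Adora2b*, an adenosine receptor coupled to cyclic AMP, rose by 0.94 on the log2 scale (SE 0.148). The prostaglandin receptor *Ptger4* fell by 0.87 (SE 0.0999) and the adenosine receptor *Adora2a* fell by 0.57 (SE 0.120). These adenosine receptors had low levels. *Adora2b* ran from 0.349 to 1.13 CPM at rest and from 0.963 to 2.10 CPM after exercise. *Adora2a* ran from 1.27 to 2.36 CPM at rest and from 0.680 to 1.44 CPM after exercise. Of 13 PKA subunits, inhibitors and anchors, 2 rose and 0 fell. Both were anchoring proteins, *Akap12* with 0.52 (SE 0.107) and *Akap13* with 0.15 (SE 0.0421), the latter not called without TMM, without a filter or without mouse 14, and the catalytic subunit genes *Prkaca* and *Prkacb* had -0.050 (SE 0.0332) and 0.040 (SE 0.0313).

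Of 13 other phosphodiesterases, *Pde7a* with 0.53 (SE 0.108) and *Pde4c* with 0.40 (SE 0.0982) rose and *Pde1b*, a calcium-activated enzyme, fell by 0.52 (SE 0.156). Without TMM *Pde7a* alone was called, and *Pde1b* was not called in 6 of the 25 fits that left out 1 mouse. Of 13 other CREB and ATF factors and histone acetyltransferases, *Nfil3* with 2.16 (SE 0.191) and *Atf4*, the factor of the integrated stress response, with 0.32 (SE 0.0587) rose and 0 fell. The acetyltransferases that bind phosphorylated CREB, *Crebbp* and *Ep300*, had 0.069 (SE 0.0723) and 0.10 (SE 0.0690). Of 21 genes of the LKB1 complex and AMPK-related kinases, which share the activation of the salt-inducible kinases, 3 rose and 2 fell. *Snrk* rose by 0.44 (SE 0.0526), *Brsk1* fell by 0.53 (SE 0.145), and *Stk11*, which encodes LKB1, had 0.083 (SE 0.0512). The level of *Brsk1* was low, at 0.528 to 1.26 CPM at rest and 0.443 to 0.843 CPM after exercise. *Nuak2* with 0.72 (SE 0.226) and *Nuak1* with 0.36 (SE 0.115) passed narrowly, with adjusted p = 0.0403 and 0.0480 by edgeR, and were not called in 13 and 19 of the 25 fits that left out 1 mouse, nor without TMM. The value of *Nuak2* is a mean of 0.17 in WT and 1.26 in mD3AKO mice, and that difference had an adjusted p of 1.00 by edgeR. The list had 2 genes called without TMM and 3 in 8 of the single-mouse fits. Of 14 genes of class IIa histone deacetylases, MEF2 and calcineurin, *Rcan1*, a calcineurin inhibitor, rose by 0.74 (SE 0.185) and *Hdac7* fell by 0.21 (SE 0.0661). *Hdac7* was not called without TMM, without a filter or in 10 of the 25 single-mouse fits, which left the list with 1 gene.

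Of 22 listed CREB target genes 18 were tested, and of these 10 rose and 2 fell. The median exercise log2 fold change of the list was 1.26, beside -0.00090 over all genes. *Pck1*, which rose, was not called without TMM or in 14 of the 25 single-mouse fits. *Rgs2*, which fell, was not called without TMM or in 7 of these 25 fits. *Nr4a2* with 3.50 (SE 0.329), the immediate early gene *Fos* with 3.35 (SE 0.531), *Nr4a3* with 3.13 (SE 0.251) and *Irs2* with 2.82 (SE 0.177) changed most, and *Sik1*, which is not on that list, lay within its range at 2.15. *Nfil3* stands on this list and on that of CREB and ATF factors. The list was drawn up when parts of the exercise response in these mice were already known and is no independent evidence of its direction. For genotype and for the interaction, 0 genes of any of the 7 lists passed by edgeR.

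For sex, by the fit with 8 groups and beside 8.15% of all genes, 8 of 18 CREB target genes passed, all higher in males, with a median male minus female log2 difference of 0.37. The counts were 5 of 21 LKB1 and AMPK-related genes (4 higher in males), 3 of 14 genes of class IIa deacetylases, MEF2 and calcineurin (2 higher in males), 2 of 13 other phosphodiesterases (both higher in males) and 1 of 19 receptors and cyclases (lower in males). Of the PKA genes and the other CREB and ATF factors 0 passed. These counts moved with scaling and with single mice. Without TMM the CREB target list had 5 genes called and the LKB1 and AMPK-related list 0, and without mouse 20 they had 4 and 0. The list of other phosphodiesterases had 0 genes called without TMM, and 0 in 19 and 1 in 2 of the 25 fits that left out 1 mouse. Of all genes called for sex, 65.7% were higher in males, and 20.3% without TMM.

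**Figure D5:**
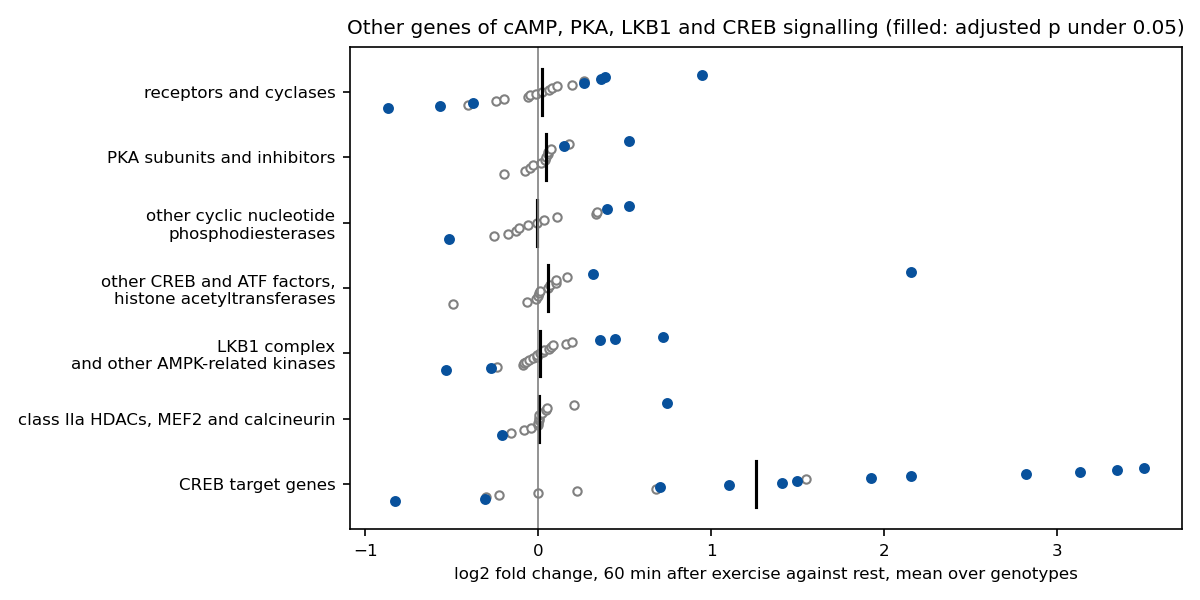
Exercise log2 fold change (horizontal axis, mean over genotypes) of every tested gene in the 7 lists of related genes, filled where the adjusted p was under 0.05, with a vertical bar at the median of each list. The medians of 6 lists lie near 0, and that of the CREB target genes lies at 1.26.

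Markers of other cells moved with exercise in part. Of 6 endothelial markers 5 were lower after exercise, beside 4.69% of all genes, and their sum ran from 342 to 456 CPM in rested WT, 334 to 432 in rested mD3AKO, 284 to 370.3 in exercised WT and 298 to 360 in exercised mD3AKO mice. Of 4 satellite cell markers 2 were lower, with sums of 31.3 to 38.0 CPM over the rested groups and 26.6 to 32.8 CPM over the exercised groups, and 1 differed by genotype, beside 0.269% of all genes. Of 5 smooth muscle and pericyte markers 1 was lower, and 0 passed among the markers of muscle fibers, fibroblasts, immune cells, adipocytes, Schwann cells and blood, of which *Ucp1* stayed under 0.1 CPM in every library. These falls run opposite to the rise of *Sik1*, *Pde4d* and *Crem*, and their part in the results was not tested.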

How the data were processed

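Total RNA of *soleus* was depleted of ribosomal RNA, made into stranded libraries and read as 75-bp paired ends, 1 library per mouse. Per the submitters' processing notes and the study's methods, the authors used FastQC 0.11.5, STAR 2.5.3a and featureCounts 1.5.3 on mm10 with GENCODE release M15, and deposited raw counts per gene without normalization or filter. The strand setting of counting is not given in the sources used here. Symbols came from GENCODE M21 (52403 of 52636 genes). Of the columns, 0 belonged to other samples. The 67 pairs of replicates were compared, and 0 were identical or within sampling noise.

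Counts were tested with edgeR 4.0.16 (limma 3.58.1, R 4.3.3): filterByExpr (minimum count 10, minimum total 15; 16340 genes), TMM, 1 mean per group, quasi-likelihood F test, Benjamini-Hochberg adjustment over all tested genes, threshold 0.05. Adjusted p-values in the text come from this fit. Standard errors are the log2 fold change over the square root of F. Levels per kilobase divide CPM by the deposited exon length, which takes no account of isoforms. Likeness used log2 CPM with a prior count of 2. The fit was tested on simulated data. The members, the gene lists and the markers were chosen with earlier results of these data known. All members are named; of each list, the called genes with the 4 largest changes; for *Sik1* and *Pde4d*, the 5 genes of highest r. Of the genes so picked, 2 are not reported here. *Prkaca*, *Prkacb*, *Crebbp*, *Ep300* and *Stk11* were named in addition, after their values were seen, for their roles. *Adcy3*, *Gnai3*, *Pck1* and *Rgs2* were named for the calls they lost in other fits. Alternatives were DESeq2 1.42.0, library totals without TMM, RLE factors, no filter, sex as a term, a term for runs of mouse numbers (1–6, 7–19, 20–25; all males and no females were in 7–19, so it also takes up sex), removal of 3 ribosomal RNA genes and leaving out each mouse.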

Additional observations from a re-analysis of the deposited data

Results flagged for a closer look

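In 6 of the 40 combinations of member and group, 1 mouse stood far from the others of its group by Dixon's criterion, which by chance picks out about 1 in 20 groups (5%). *Sik1* was high in mouse 2, a rested mD3AKO mouse, at 37.0 CPM beside 20.2 to 22.8 CPM in the others of its group. *Sik1* was low in mouse 5, an exercised WT mouse, at 83.6 CPM beside 104 to 119 CPM. *Crtc1* was low in mouse 17, an exercised mD3AKO mouse, at 3.99 CPM beside 5.01 to 5.39 CPM. Mouse 1, a rested WT mouse, appeared for 2 members, with *Crtc3* low at 11.6 CPM beside 13.3 to 13.9 CPM and *Crem* high at 17.5 CPM beside 13.6 to 13.9 CPM. *Pde4b* was high in mouse 11, also a rested WT mouse, at 80.7 CPM beside 61.9 to 67.3 CPM. Without mouse 11 the exercise log2 fold change of *Pde4b* was 0.25 in place of 0.21, and that in WT mice 0.13 in place of 0.056.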

How the results depend on the processing

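*Sik1*, *Pde4d* and *Crem* passed the exercise threshold in all 33 fits (edgeR, 7 alternatives and 25 fits that each left out 1 mouse), *Pde4b* passed in 11 of them, and the number of members called was 3 or 4, beside 4.27% (without a filter) to 12.5% (with the term for runs of mouse numbers) of all genes tested, in either direction. *Pde4b* passed without mouse 3, 7, 9, 11, 12, 15 or 25, with log2 fold changes of 0.18 to 0.25 over the 25 fits, and with DESeq2, without the 3 ribosomal RNA genes, with sex as a term and with the term for runs of mouse numbers. For genotype, interaction, sex and exercise by sex, 0 members were called in any fit run. No paired analysis was possible because each mouse has its own number and the groups share none. Of 363 values under the other settings 326, and of 1850 values with 1 mouse left out 1670, kept their direction and their side of the threshold, or, for counts, stayed within 1.5 times; the cause of the exceptions was not tested.

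Without TMM the exercise value of *Crtc3* was -0.0093. The genotype value of *Crtc2* was 0.0011 with RLE factors and 0.0013 without the ribosomal RNA genes, and the interaction of *Pde4d* was -0.017 with the term for runs of mouse numbers. Without TMM the male minus female difference was -0.044 for *Sik1*, -0.097 for *Crtc3*, -0.11 for *Crem*, -0.058 for *Pde4b* and -0.031 for *Pde4d*. These 5 changes of sign go with a shift of all 10 members, and of the median over all genes, by 0.11 to 0.13 and are no reversal of single genes. The exercise by sex difference of *Crtc2* was 0.013 without TMM and 0.0080 without a filter, and that of *Crtc3* 0.0052 and 0.0029. Each of these settings turned the sign of a value that was within 2 standard errors of 0.

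Over all genes, 1699 were called for exercise and 927 without TMM, 1418 for sex and 748 without TMM, and 8 for exercise by sex, with 3 without TMM and 23 without a filter. For genotype, 44 genes were called, with 81 by DESeq2, 29 without TMM, 72 with sex as a term and 97 with the term for runs of mouse numbers. Of the lists, PKA subunits went from 2 called to 1 without TMM, other phosphodiesterases from 3 to 1, LKB1 and AMPK-related kinases from 5 to 2, and class IIa deacetylases, MEF2 and calcineurin from 2 to 1, also without a filter. The term for runs of mouse numbers also takes up sex, since mice 7 to 19 were all the males. The effect of scaling, filter and single mice on the sex counts of the lists was examined after seeing the data. Without TMM, 5 CREB target genes, 2 receptors and cyclases, 0 other phosphodiesterases, 0 LKB1 and AMPK-related genes and 1 gene of deacetylases, MEF2 and calcineurin were called for sex, and without a filter 1 other phosphodiesterase and 3 LKB1 and AMPK-related genes.

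With 1 mouse left out, the exercise value ran from -0.057 to 0.014 for *Crtc1*, from 0.023 to 0.10 for *Crtc2* and from -0.013 to 0.034 for *Crtc3*. The genotype value ran from -0.082 to 0.047 for *Sik1*, -0.029 to 0.045 for *Crtc2* and -0.063 to 0.0026 for *Pde4b*. The interaction ran from -0.0035 to 0.26 for *Sik1*, -0.021 to 0.056 for *Sik3*, -0.029 to 0.12 for *Crtc2*, -0.061 to 0.074 for *Crem* and -0.095 to 0.082 for *Pde4d*. The sex difference ran from -0.089 to 0.035 for *Sik2*, -0.049 to 0.0011 for *Sik3*, -0.016 to 0.045 for *Crtc3* and -0.029 to 0.062 for *Crem*. The exercise by sex difference ran from -0.056 to 0.21 for *Sik2*, -0.18 to 0.082 for *Crtc1*, -0.039 to 0.073 for *Crtc2*, -0.068 to 0.043 for *Crtc3* and -0.13 to 0.054 for *Pde4b*. The genes called for sex numbered 834 to 1740, the lowest without mouse 20, and those called for exercise by sex 3 to 17, moving by over 1.5 times without mouse 1, 2, 3, 6, 11, 22 or 23. The PKA list had 1 to 2 genes called, with 1 without mouse 14. The LKB1 and AMPK-related list had 3 to 5, with 3 without mouse 7, 8, 12, 14, 18, 19, 20 or 22. The list of deacetylases, MEF2 and calcineurin had 1 to 3, with 1 without mouse 3, 4, 9, 10, 13, 16, 18, 20, 21 or 24. Called for sex with 1 mouse left out were 4 to 9 CREB target genes, fewest without mouse 20 and 5 without mouse 13, 17 or 24, 1 to 3 receptors and cyclases, 0 to 3 other phosphodiesterases (0 in 19 and 1 in 2 of the 25 fits) and 0 to 5 LKB1 and AMPK-related genes, the last with 0 without mouse 20. The lowest member value, 3.70 CPM for *Crtc1* in mouse 15, rested on 53 counts, so counting error adds to the spread of the least expressed members.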
